A study of Mus musculus with 9 samples.

Results

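The cytosolic and mitochondrial ribosomal protein genes were examined in liver RNA-seq of mice under short dietary restriction. Members were all genes of the deposited TPM table (transcripts of a gene per 1000000 of the library) whose symbol begins with Rpl, Rps, Mrpl or Mrps in the ribosomal protein sense, with a mean of at least 1 TPM. The rule matched 127 names and left out 2 genes of S6 kinases, which modify a ribosomal protein but are not part of the ribosome, and 1 annotated pseudogene. This gave 124 members, of 5608 genes listed and 4665 genes tested. There were 81 cytosolic members, 49 of the large and 32 of the small subunit, and 43 mitochondrial members, 28 of the large and 15 of the small subunit. Subunits were assigned by symbol alone, which need not match the place of a protein, so the mitochondrial split is approximate.

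The livers came from wild-type C57BL/6 J mice, 3 per group and 9 in all. The FED group ate standard diet freely. The IF group went without food for 24 h, 2 times a week, with free feeding between the fasts, and the FMD group was given a fasting-mimicking diet for 3 days. Each library was made from the liver of a separate mouse, and libraries are named by group and replicate (FED 1 to 3, IF 1 to 3, FMD 1, 2 and 4). Ages were not given in the sources used here.

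On the deposited TPM scale, the mRNAs of cytosolic ribosomal proteins were higher in the livers of FMD-fed mice than in those of FED mice in 58 of 81 genes and lower in 0, against 35.5% of all genes tested that were higher, with a median log2 fold change of 0.68. With the library FMD 1 left out, 9 of the 81 were called, below the 23.1% of all genes tested in that setting. Without the limit on size of change, 72 of the 81 passed the adjusted p there, against 57.7% of all genes higher. Of the mitochondrial ribosomal protein mRNAs 5 of 43 were called higher, a share below the 35.5% of all genes. Their median was 0.39, against 0.48 for all genes tested. In IF livers 1 gene of each compartment was called higher, against 10.3% of all genes, although 78 of 81 cytosolic and 35 of 43 mitochondrial fold changes were above 0. Between FMD and IF livers 0 members of either compartment passed the test. The whole table was higher in the livers on either regimen, and with each library scaled to the median gene 0 members were called in any of the 3 comparisons. The difference between the mean log2 levels of the compartments, which the scale of a library hardly touches, was larger in 6 of 6 libraries of the restricted groups than in any FED library.

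The cytosolic ribosome translates the mRNAs exported from the nucleus, and its proteins are made in near-equal amounts because each particle holds a fixed set of them. Most of their mRNAs start with a 5′ terminal oligopyrimidine (TOP) tract, through which the nutrient-sensing kinase complex mTORC1 and the RNA-binding protein LARP1 control their translation and stability. The mitochondrial ribosome is a separate particle that translates the few mRNAs of the mitochondrial genome, and its proteins are all encoded in the nucleus and imported.

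TPM gives each gene a share of a library, per length of transcript, so levels can be compared between genes. The listed genes held 26.3% to 43.0% of each library's total of 1000000 TPM, so the table is part of each library and its depth is unknown. This share was 27.9% ± 1.49 (SD, n = 3) in FED, 34.0% ± 1.03 in IF and 38.1% ± 4.31 in FMD livers. The median log2 fold change of all genes tested was 0.24 for IF against FED, 0.48 for FMD against FED and 0.24 for FMD against IF. Results are therefore given on the deposited values and on values divided by a median-of-ratios factor per library, called scaled values. All fold changes are on the log2(TPM + 1) scale, and a gene is called where limma gave an adjusted p below 0.05 and a change of more than 1.5-fold. In bulk liver, fewer cells of a type and less RNA per cell cannot be told apart. Of 83 marker genes of liver cell types on the lists used, 8 were listed, and the others were not analysed here. The hepatocyte gene Ass1, of the urea cycle, lay between 2335 and 5153 TPM in all libraries. The macrophage gene Cd68 reached 64.0 TPM in FMD 1, against 3.14 to 12.2 in the other libraries. The TPM of 4 stellate cell genes (Col1a1, Dcn, Pdgfrb and Hgf) was summed. This sum was 67.5 to 95.5 TPM in FED, 124.6 to 161.5 in IF and 108.5 to 220.8 in FMD livers. FED did not overlap with either regimen, as in the summed TPM of the ribosomal genes and of all listed genes. Of the 4, 1 was called higher for IF and 1 for FMD against FED, beside 10.3% and 35.5% of all genes tested. Their median log2 fold changes were 0.29 and 0.25, and on scaled values 0.12 and -0.11 with 0 called. Oit3, of sinusoidal endothelium, lay at 6.58 to 9.28 TPM in FED, 6.35 to 8.02 in IF and 8.85 to 17.2 in FMD livers, and Krt19, of bile duct cells, at 0.76 to 1.78, 1.02 to 2.06 and 1.22 to 4.07 TPM. The part of these cells in the results was not tested.

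The TOP tract lies at the start site of a gene, and 10 start sites, with and without such a tract, are printed for members described below. Each run holds 15 bases before and 15 from the start site that RefSeq annotates on GRCm38.p6, read on the transcript's strand, and capitals mark the motif as the stretch of C and T from a first C, leaving out any T just before it. The motif was a C within 2 bases of the start, followed by at least 4 bases that are each C or T, and it was searched on the transcript's strand only. The windows are Rps6 at chr4:86857353-86857382 (minus strand), Rpl14 at chr9:120571502-120571531 (plus), Rps18 at chr17:33955651-33955680 (minus), Rplp2 at chr7:141447636-141447665 (plus), Rps27rt at chr9:114982725-114982754 (minus), Rpl5 at chr5:107900513-107900542 (plus), Rpl22l1 at chr3:28805493-28805522 (plus), Mrpl17 at chr7:105811073-105811102 (minus), Mrps21 at chr3:95871500-95871529 (minus) and Mrpl49 at chr19:6057741-6057770 (minus).
Rps6: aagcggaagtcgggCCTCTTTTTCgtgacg
Rpl14: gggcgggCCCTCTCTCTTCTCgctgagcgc
Rps18: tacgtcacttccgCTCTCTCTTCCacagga
Rplp2: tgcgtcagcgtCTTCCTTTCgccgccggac
Rps27rt: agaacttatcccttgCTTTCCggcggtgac
Rpl5: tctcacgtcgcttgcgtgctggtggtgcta
Rpl22l1: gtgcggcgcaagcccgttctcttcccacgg
Mrpl17: tactgcgcatgcgtCCTCTgagacgtgcct
Mrps21: gcttcctcccgtcgcgggactccgtagctt
Mrpl49: gcgcgcgcatatgacactcagttgaggcgc

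Of the 124 members, 98 had an entry. The motif was present at 22 of 72 cytosolic starts (30.6%) and 6 of 41 mitochondrial starts (14.6%), against 8.96% of all 32851 starts in the table. A run of at least 8 C or T bases within 20 bases of the start was found at 41.7% of cytosolic and 19.5% of mitochondrial starts, against 16.0% of all starts. The annotated start can lie some bases from the one used in liver, so a start without the motif, such as that of Rpl5, says only that these letters are not at this position. The 21 cytosolic genes with the motif had a median log2 fold change for FMD against FED of 0.65, and the 40 without it had a median of 0.68. Among mitochondrial genes the medians were 0.59 for the 6 with the motif and 0.35 for the 31 without. These medians are descriptions on the deposited scale, without a test.

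Cytosolic members were among the most abundant mRNAs of the table. Their mean over the 9 libraries ran from 23.6 TPM for Rps15a, a small-subunit protein, to 1611 TPM for Rps27rt, with a median of 612. Rps27rt is a retrogene copy of Rps27, Rps2 (1568 TPM) helps shape the entry of the mRNA channel, and Rps18 (1500 TPM) belongs to the head of the small subunit. Reads of near-identical copies, such as retrogenes and processed pseudogenes, can be assigned to either copy, so the single values of Rps27rt and of other members with close copies are uncertain. The mitochondrial members ran from 6.69 TPM for Mrpl35 to 170 TPM for Mrpl52, both of the large subunit, with a median of 39.8, and Mrpl30 (130.1 TPM) and Mrpl14 (128 TPM) followed Mrpl52. The 81 cytosolic members held 3.75% to 4.33% of the TPM total in FED, 4.80% to 5.12% in IF and 5.28% to 8.78% in FMD livers. For the 43 mitochondrial members these shares were 0.185% to 0.204%, 0.208% to 0.220% and 0.221% to 0.306%. No FED library overlapped with the IF or FMD libraries in either share of the TPM total. As a share of the listed genes' sum, which itself differed between groups, the cytosolic members held 14.2% to 14.8% in FED, 13.9% to 15.3% in IF and 14.5% to 20.4% in FMD livers, with overlap. The mitochondrial members held 0.676% to 0.703% of that sum in FED, 0.627% to 0.633% in IF, below all FED libraries, and 0.618% to 0.712% in FMD livers.

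**Figure D1:**
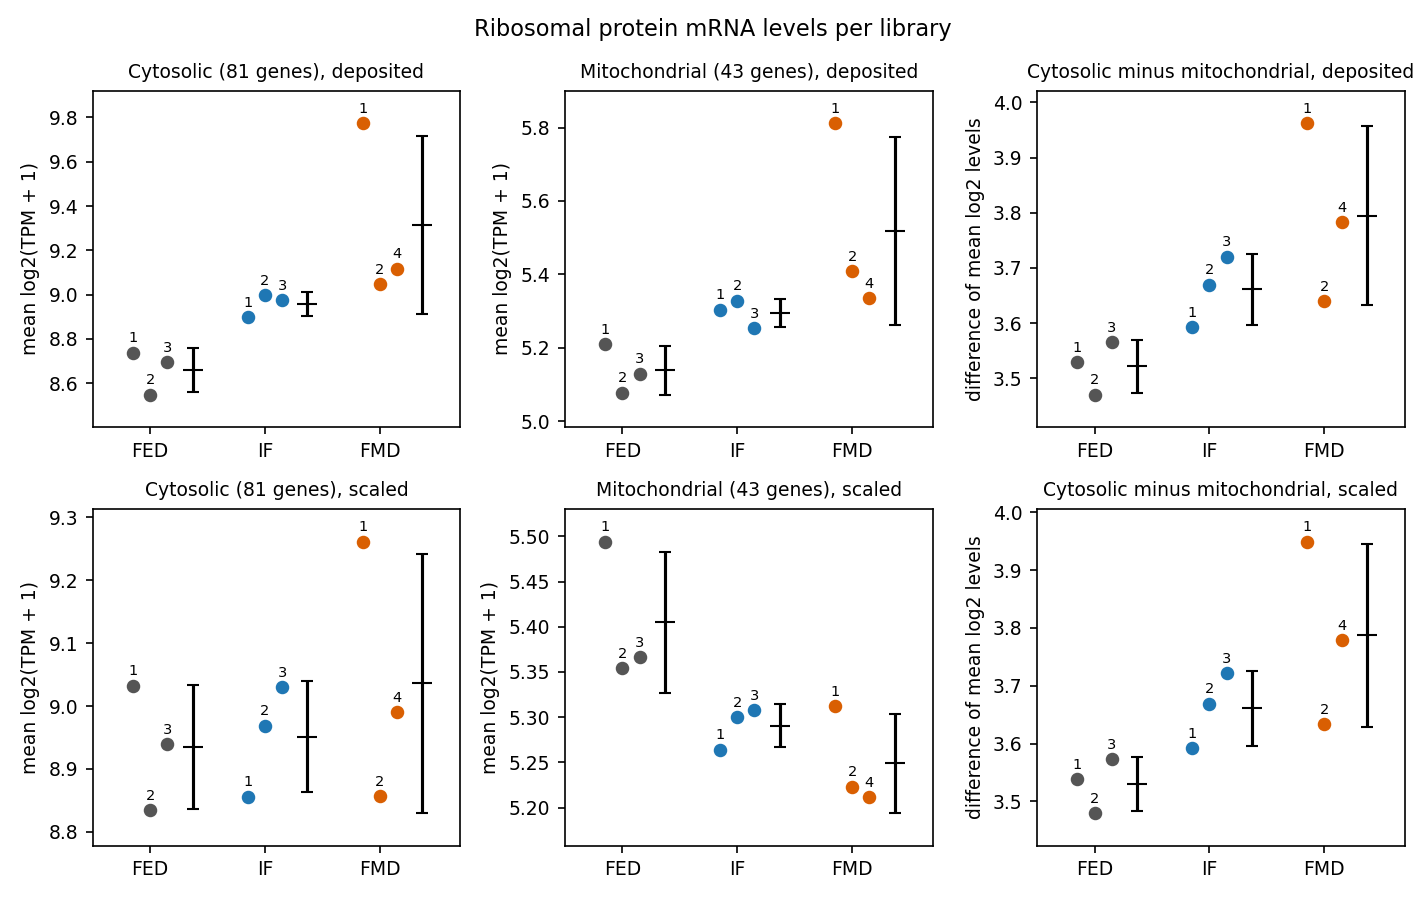
Mean log2(TPM + 1) per library of the 81 cytosolic members (left), of the 43 mitochondrial members (middle) and their difference (right), on deposited values (top) and scaled values (bottom). Points are libraries with their replicate number, and bars show the mean and SD of 3 libraries. FMD 1 is highest for both compartments on the deposited scale, and the difference lies above all FED libraries in each IF and FMD library on either scale.

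In the comparison of FMD with FED livers, the deposited values of cytosolic genes moved together. Of the 81 genes, 58 were called higher, against 35.5% of all genes tested, and 0 were called lower, against 1.59%. The fold change was above 0 in 81 of 81 genes, and 80% of the genes lay between 0.48 and 0.81, a narrower span than the 0.04 to 0.92 of all genes tested. The small subunit had 26 of 32 genes called and a median of 0.70, and the large subunit had 32 of 49 called and a median of 0.67. With FMD 1 left out, 9 cytosolic genes were called, against 23.1% higher and 1.91% lower of all genes. The medians were 0.44 for cytosolic and 0.23 for mitochondrial members, against 0.37 for all genes tested. Without the limit on size, 72 cytosolic genes passed the adjusted p in that setting, against 57.7% of all genes higher.

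Rpl5 and Rpl11, which with 5S rRNA form the 5S ribonucleoprotein that restrains the p53 inhibitor Mdm2 when ribosome assembly is disturbed, were among the members with the smallest adjusted p. Rpl5 measured 156, 148 and 165 TPM in FED 1 to 3, 213, 252 and 226 TPM in IF 1 to 3, and 409, 257 and 258 TPM in FMD 1, 2 and 4. All FED libraries were below all others, and FMD 1 stood far above the rest. The log2 fold change of Rpl5 for FMD against FED was 0.94 ± 0.173 (SE; limma adjusted p = 0.0016), the largest among cytosolic members. Rpl11 measured 211, 193 and 213 TPM in FED, 254, 282 and 287 TPM in IF, and 459, 306 and 326 TPM in FMD livers. It rose by 0.80 ± 0.152 (SE; limma adjusted p = 0.0019) with the same order of groups.

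Rps19, a small-subunit protein whose loss causes Diamond-Blackfan anaemia in humans, measured 470, 422 and 470 TPM in FED, 604, 642 and 646 TPM in IF, and 1147, 711 and 738 TPM in FMD livers. Its log2 fold change was 0.90 ± 0.170 (SE; limma adjusted p = 0.0019). The 3 groups were ordered FED, IF, FMD without overlap, and FMD 2 and FMD 4 lay close to the IF libraries. Rps6, the small-subunit protein phosphorylated by S6 kinases downstream of mTORC1, had the TOP tract printed above. It measured 305, 279 and 331 TPM in FED, 380, 409 and 382 TPM in IF, and 751, 446 and 452 TPM in FMD livers, a log2 fold change of 0.81 (limma adjusted p = 0.0043). The abundant Rps18 rose by 0.78 (limma adjusted p = 0.0031).

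The stalk that recruits elongation factors is built from Rplp0 and the small acidic proteins Rplp1 and Rplp2, on a base that includes Rpl12. Of the 3 P-protein genes, 1 was called. Rplp2 measured 747, 566 and 650 TPM in FED, 804, 736 and 676 TPM in IF, and 1542, 1084 and 866 TPM in FMD livers (log2 fold change 0.80, limma adjusted p = 0.0058). Rplp0 had a log2 fold change of 0.57 (limma adjusted p = 0.015), just under the limit. Rplp1 measured 1271, 1009 and 1036 TPM in FED, 1072, 1181 and 1094 TPM in IF, and 1860, 1165 and 1100.5 TPM in FMD livers, so its groups overlapped, and its log2 fold change was 0.28 (limma adjusted p = 0.20). Rpsa, a small-subunit protein that is also known as the laminin receptor, rose by 0.62 (limma adjusted p = 0.022), while Rps2 had 0.30 (limma adjusted p = 0.097).

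**Figure D2:**
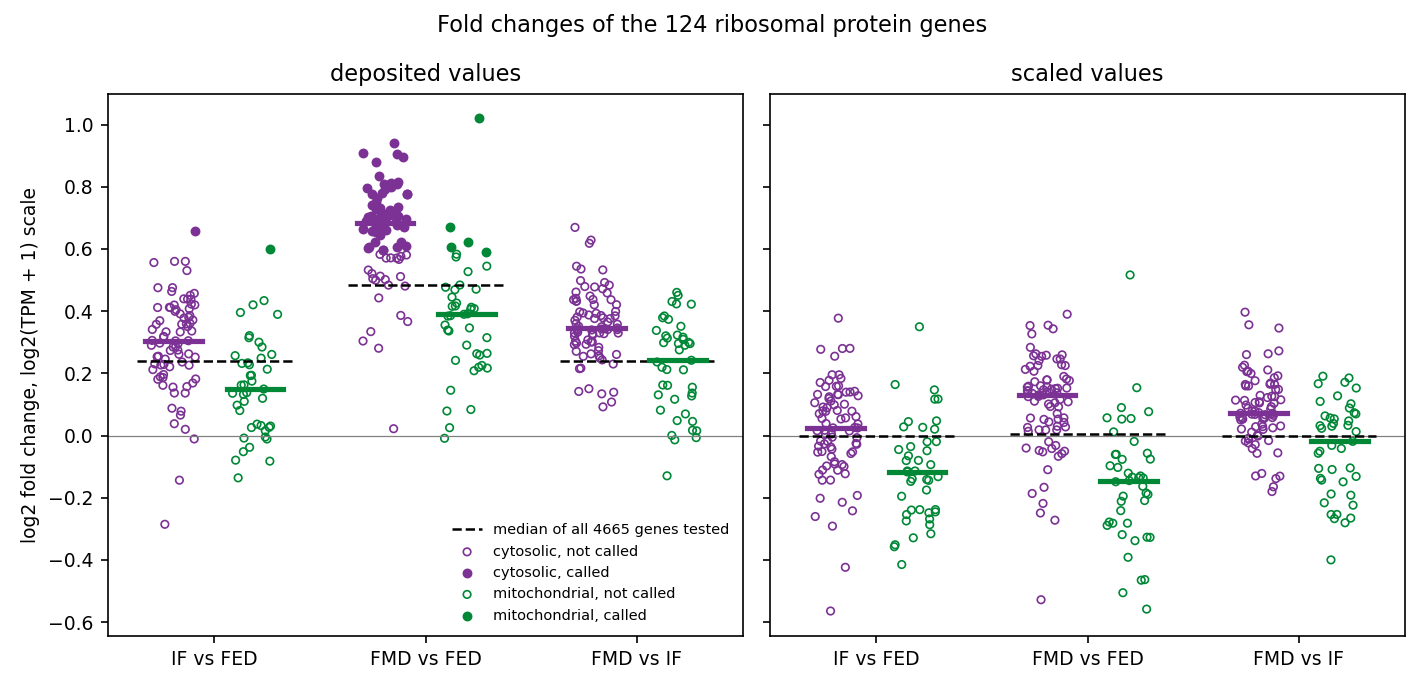
Log2 fold change on the log2(TPM + 1) scale of each of the 124 members in the 3 comparisons, on deposited (left) and scaled (right) values. Each circle is a gene, filled where it was called, thick lines are the medians of the compartments and dashed lines the medians of all 4665 genes tested. The cytosolic median for FMD against FED is 0.68 on deposited and 0.13 on scaled values, and the mitochondrial median is 0.39 and -0.14. Without FMD 1 the deposited medians are 0.44 and 0.23.

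On scaled values the cytosolic genes lay near the median gene. For FMD against FED their median log2 fold change was 0.13, with 65 of 81 genes above 0 and 0 called higher or lower, against 5.49% higher and 5.64% lower of all genes tested. At an unadjusted p under 0.05 there were 8 cytosolic genes in limma on scaled values, against 36.3% of all genes tested. Rpl5 alone among them passed the adjusted p without the limit on size, at 0.39 ± 0.116 (SE; limma adjusted p = 0.039). With FMD 1 left out, the scaled cytosolic median was 0.01, and 1 gene, Rpl22l1, was called lower at -0.66 (limma adjusted p = 0.032), against a background of 5.57% higher and 5.49% lower. The scaled median thus rested on that library. Most calls on the deposited values rested on it too, through the limit on size, since most of these genes still passed the adjusted p without it.

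FMD 1 stood apart in the cytosolic genes beyond its overall shift. It was the highest of the 9 libraries in 80 of 81 cytosolic, 38 of 43 mitochondrial and 65.7% of all genes tested on the deposited scale. On scaled values it was the highest in 66 of 81 cytosolic genes, 8 of 43 mitochondrial genes and 21.2% of all genes. The median cytosolic gene was higher in FMD 1 than in the mean of FMD 2 and FMD 4 by 0.34 on the scaled log2 scale, the median mitochondrial gene by 0.10, and the median of all genes by -0.01. Cytosolic members had a median transcript length of 712 bases and mitochondrial members 955, against 2019 for all genes tested. With trends of length and GC content removed from each library, the cytosolic median for FMD against FED was 0.22 and the mitochondrial one -0.10, with 0 members called. This removal also took out the overall shift of each library, and the median of all genes tested was 0.01 there. The medians to set beside it are therefore the scaled ones, 0.13 for cytosolic and -0.14 for mitochondrial members.

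**Figure D3:**
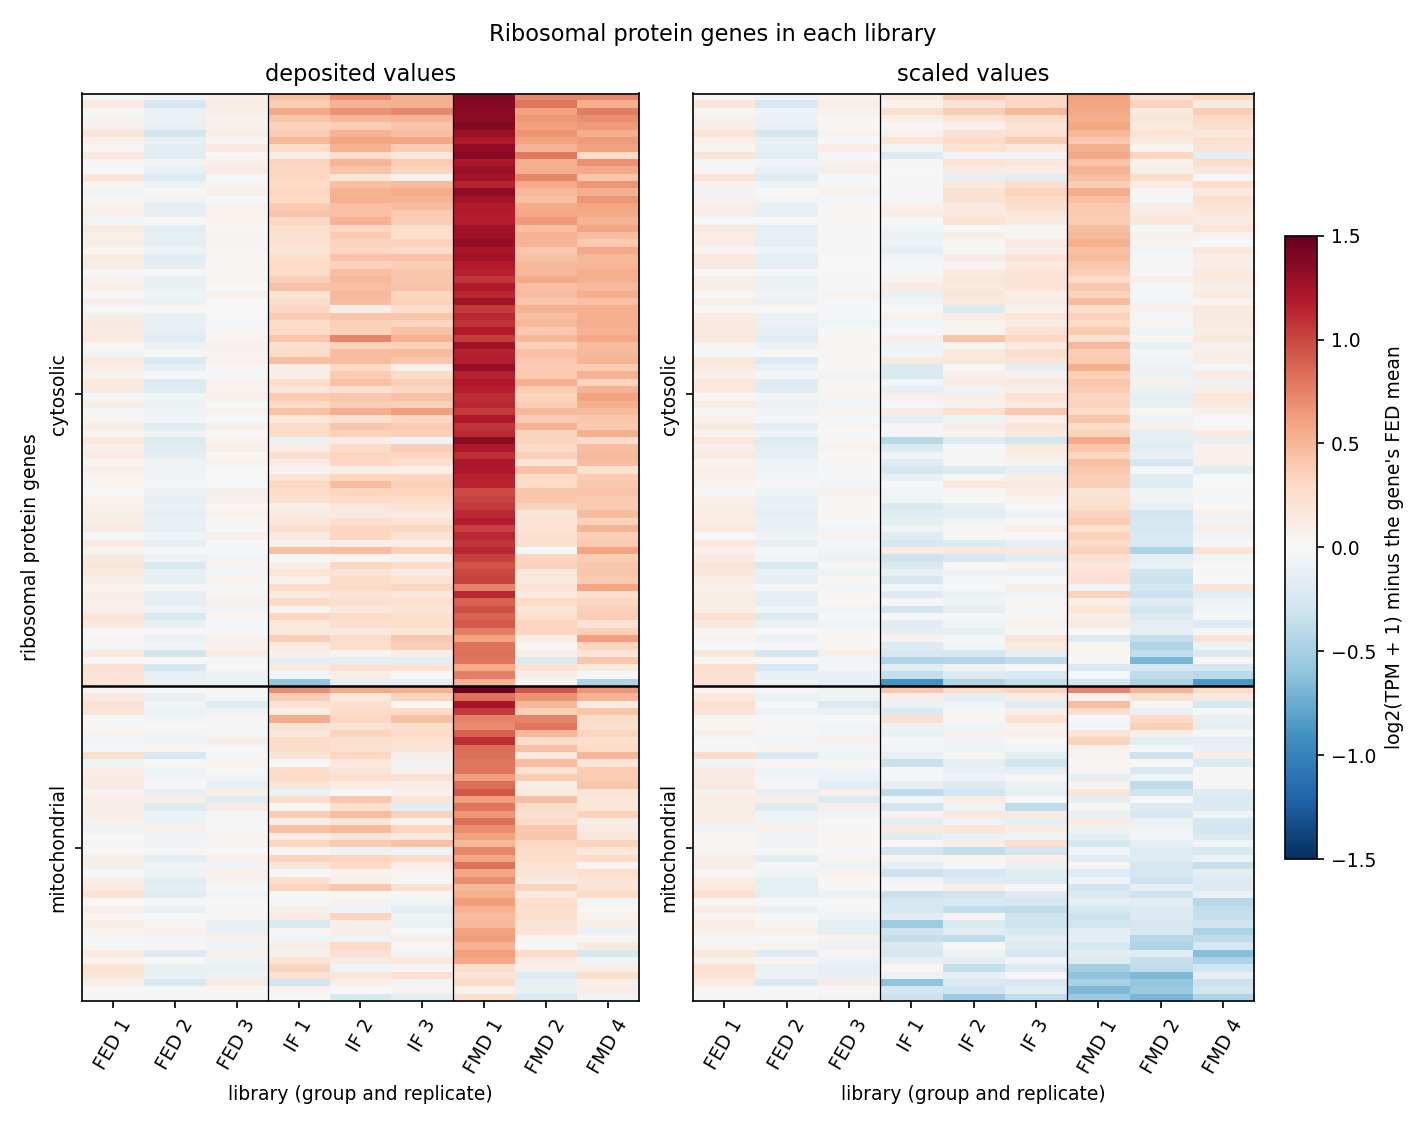
Log2(TPM + 1) of each of the 124 members minus its mean in FED libraries, on deposited (left) and scaled (right) values. Columns are libraries, and rows are genes in order of the deposited FMD against FED fold change within the cytosolic (81, top) and mitochondrial (43, bottom) members. On scaled values FMD 1 is the highest library in 66 of 81 cytosolic genes, and the mitochondrial rows are mostly below the FED mean in IF and FMD libraries.

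In IF against FED livers, the deposited cytosolic values moved with the table as a whole. The median log2 fold change was 0.30, and 1 of 81 genes was called higher and 0 lower, against 10.3% and 1.59% of all genes tested. The called gene was Rps27rt, with 1072, 1007 and 1144 TPM in FED, 1608, 1711 and 1765 TPM in IF, and 2741, 1625 and 1830 TPM in FMD livers. Its FED libraries lay below all others, while IF and FMD 2 and 4 overlapped. The log2 fold change was 0.66 ± 0.176 (SE; limma adjusted p = 0.022) for IF and 0.91 ± 0.176 (limma adjusted p = 0.0020) for FMD. It was not called for IF when any FED or IF library was left out, where 0 cytosolic genes were called. Without the limit on size 5 cytosolic genes passed the adjusted p, against 22.0% of all genes higher. Among them were Rpl22 (0.53, limma adjusted p = 0.030) and Rpl5 (0.56, limma adjusted p = 0.041), both of the large subunit. These counts depend on FMD 1, because all libraries share the estimate of spread. With FMD 1 left out, 52 cytosolic genes passed the adjusted p at the same median of 0.30, against 40.2% of all genes higher. On scaled values the cytosolic median was 0.02 and 0 genes were called, against 3.69% higher and 3.45% lower of all genes, with 6 genes at an unadjusted p under 0.05 in limma against 29.4% of all genes.

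Between FMD and IF livers, 0 members of either compartment were called on the deposited values, against 4.67% higher and 0.472% lower of all genes tested. At an unadjusted p under 0.05, limma gave 28 cytosolic and 10 mitochondrial genes, against 35.3% of all genes tested. The medians were 0.35 for cytosolic and 0.24 for mitochondrial members, and with FMD 1 left out 0.12 and 0.09. On scaled values the medians were 0.07 and -0.02, 0 members were called against 1.11% higher and 1.11% lower of all genes, and 1 cytosolic and 7 mitochondrial genes had an unadjusted p under 0.05 in limma, against 23.6% of all genes. The largest cytosolic difference was that of Rpl12, with 644, 745 and 664 TPM in IF and 1763, 870 and 837 TPM in FMD livers (log2 fold change 0.67, limma adjusted p = 0.095). All FMD values of Rpl12 were above all IF values, and its FED values of 766, 596 and 714 TPM overlapped with those of IF. Rps27l had the smallest, at 0.09 (limma adjusted p = 0.64). Among mitochondrial members the extremes were Mrpl54 at 0.46 (limma adjusted p = 0.18) and Mrpl14 at -0.13 (limma adjusted p = 0.49).

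The mitochondrial ribosomal protein genes had lower medians than the table as a whole against FED. For FMD against FED their deposited median of 0.39 lay below the 0.48 of all genes tested, and 10 of 43 were above it. The called genes were Mrpl17, Mrpl45, Mrpl52 and Mrpl54 of the large and Mrps2 of the small subunit. The 35.5% called higher over all genes compares with 5 of 43 here, and 2 (Mrpl17 and Mrpl45) without FMD 1. On scaled values 35 of 43 mitochondrial genes were below 0 for FMD and 33 for IF against FED, with medians of -0.14 and -0.12, and 0 were called in either. At an unadjusted p under 0.05, limma gave 16 and 11 of these genes, near the 36.3% and 29.4% of all genes tested. Without the limit on size, 5 were lower and 1 higher for FMD, against 10.4% and 10.2% of all genes, and 3 were lower for IF, against 6.56%.

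Mrpl17, a large-subunit protein, was the only mitochondrial gene higher at the adjusted p on scaled values for FMD, against 23 of 43 on deposited values. It measured 7.05, 6.97 and 6.83 TPM in FED, 11.9, 10.8 and 10.5 TPM in IF, and 20.9, 14.2 and 11.6 TPM in FMD livers. The 3 FED values lay close together and below all others, and IF and FMD overlapped. Its log2 fold change was 1.02 ± 0.176 (SE; limma adjusted p = 0.0012) for FMD and 0.60 ± 0.176 (limma adjusted p = 0.032) for IF, the largest of all 124 members for FMD. The call for IF was lost when any FED or IF library was left out. On scaled values the fold change for FMD was 0.52 ± 0.110 (SE; limma adjusted p = 0.0099), under the limit on size. Its start carries a short pyrimidine tract, printed above. Mrpl45, which lies at the exit of the peptide tunnel and tethers the particle to the inner membrane, measured 11.7, 9.72 and 10.3 TPM in FED, 13.9, 11.9 and 13.5 TPM in IF, and 19.4, 17.5 and 15.4 TPM in FMD livers. All its FMD values were above all others (log2 fold change 0.67 ± 0.125 SE, limma adjusted p = 0.0017). Mrps2 rose by 0.59 (limma adjusted p = 0.0053), Mrpl52 by 0.61 (limma adjusted p = 0.013) and Mrpl54 by 0.62 (limma adjusted p = 0.038).

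At the other end, Mrps21 and Mrpl49 kept nearly the same deposited TPM in all groups while most genes of the table were higher. Mrps21, of the small subunit, measured 133, 132 and 129 TPM in FED, 131, 111 and 117 TPM in IF, and 156, 112 and 127 TPM in FMD livers. Mrpl49, of the large subunit, measured 23.7, 23.5 and 23.9 TPM in FED, 24.5, 23.6 and 24.5 TPM in IF, and 25.1, 21.8 and 25.6 TPM in FMD livers. The groups of both genes overlapped. The log2 fold changes for FMD against FED were -0.01 (limma adjusted p = 0.95) and 0.03 (limma adjusted p = 0.83). On scaled values they were -0.56 ± 0.099 (SE; limma adjusted p = 0.0041) and -0.51 ± 0.107 (limma adjusted p = 0.0096), the lowest of the mitochondrial members, and neither reached the limit on size. Mrps21 was also at -0.41 for IF against FED on scaled values (limma adjusted p = 0.022). Mrps18a, counted with the small subunit by its symbol only, measured 50.0, 49.6 and 54.2 TPM in FED and 49.7, 48.5 and 54.4 TPM in IF. In FMD livers it measured 79.8, 52.4 and 51.8 TPM, with overlap (log2 fold change for FMD 0.23, limma adjusted p = 0.22). Mrps36, which bears a ribosomal name but is known as a part of the 2-oxoglutarate dehydrogenase complex, lay at 18.8 to 21.5 TPM in the FED livers, at 20.3 to 22.2 TPM after IF and at 19.2 to 31.8 TPM after FMD, with overlap.

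**Figure D4:**
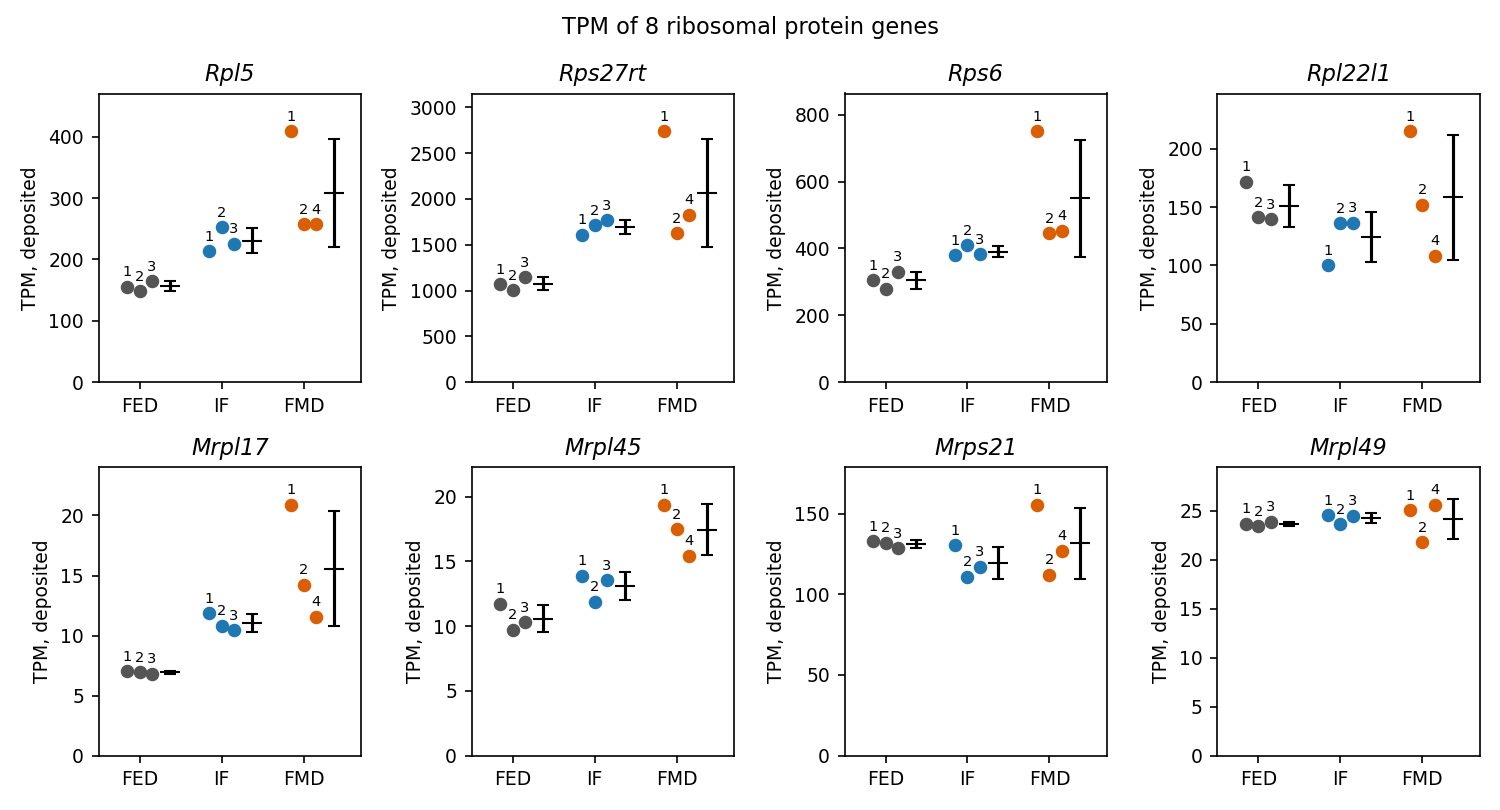
Deposited TPM of 8 members in each library, with the replicate number, and the mean and SD of 3 libraries per group. Rpl5, Rps6, Rps27rt and Mrpl17 are lowest in all 3 FED libraries, Mrpl45 is highest in the FMD libraries, and the groups overlap in Rpl22l1, Mrps21 and Mrpl49.

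The compartments differed within each library. The mean log2(TPM + 1) of cytosolic members exceeded that of mitochondrial members by 3.53, 3.47 and 3.57 in FED 1 to 3, by 3.59, 3.67 and 3.72 in IF 1 to 3, and by 3.96, 3.64 and 3.78 in FMD 1, 2 and 4. All 6 libraries of the restricted groups lay above all 3 FED libraries, IF and FMD overlapped, and the margin between FED 3 and IF 1 was small. The group means were 3.52 ± 0.048 (SD, n = 3) in FED, 3.66 ± 0.064 in IF and 3.79 ± 0.162 in FMD livers. This difference is independent of a scale factor except through the pseudocount, and scaled values gave 3.53 ± 0.047, 3.66 ± 0.065 and 3.79 ± 0.158. It was described without a test. Among mitochondrial members, those with Mrpl symbols exceeded those with Mrps symbols by 0.03 ± 0.010 in FED, 0.07 ± 0.021 in IF and 0.12 ± 0.008 in FMD livers. All FED values (0.02 to 0.04) were again below all others. This split follows symbols, so Mrps36 counts with the small subunit. In the cytosolic ribosome the large subunit was below the small, by -0.17 ± 0.028 in FED, -0.21 ± 0.006 in IF and -0.22 ± 0.018 in FMD livers.

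The paralogs of cytosolic ribosomal proteins compared here, 4 in number, were at the low end for FMD against FED. Of the 81 cytosolic fold changes on deposited values, in order from the lowest, Rpl22l1 was number 1, Rpl36al number 4, Rps27l number 7 and Rpl7l1 number 8. In the same order of genes they were numbers 1, 2, 49 and 13 for IF against FED, and 25, 71, 1 and 26 for FMD against IF. The retrogene copy Rps27rt, taken here as the related member of Rps27l, was at 0.91 for FMD against FED. Each of the 4 paralogs has a related member in the table, and the ratio of the pair within a library does not depend on the library's scale. Rpl22l1 can replace Rpl22 in the large subunit and is known to be repressed by the Rpl22 protein. Rpl22l1 measured 172, 141 and 140 TPM in FED, 100 TPM, 136 and 136 TPM in IF, and 215, 152 and 108 TPM in FMD livers, while Rpl22 measured 47.8, 45.9 and 50.2 TPM in FED, 65.2, 70.1 and 74.0 TPM in IF, and 100.2, 67.6 and 66.9 TPM in FMD livers. The groups of Rpl22l1 overlapped and those of Rpl22 separated FED from the rest. Rpl22 was called for FMD (0.67, limma adjusted p = 0.0043) and Rpl22l1 was at 0.02 (limma adjusted p = 0.93) for FMD and -0.29 (limma adjusted p = 0.36) for IF.

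The log2 ratio of Rpl22l1 to Rpl22 was 1.63 ± 0.184 (SD, n = 3) in FED, 0.81 ± 0.179 in IF and 0.98 ± 0.254 in FMD livers, without overlap between FED and either regimen. Rpl36al, an autosomal copy of the X-linked Rpl36a, had log2 ratios of 0.73 ± 0.108, 0.23 ± 0.098 and 0.35 ± 0.317, where FMD 4 overlapped with FED. The log2 ratio of Rpl7l1 to Rpl7 was -3.78 ± 0.032, -4.00 ± 0.090 and -4.03 ± 0.125. That of Rps27l, a p53-inducible relative of Rps27, to the retrogene Rps27rt was -1.25 ± 0.035, -1.56 ± 0.096 and -1.71 ± 0.301. The ratio was thus lower in IF than in FED livers without overlap in 4 of 4 pairs, and in FMD than in FED livers in 3 of 4. For single genes on scaled values, every IF library was below every FED library in 23.0% of all genes tested, and every FMD library in 18.2%. A ratio of 2 genes is another measure, and its share over other gene pairs is not given here. In exact 2-sided permutation tests of 12 comparisons, those 7 gave p = 0.10, the smallest that 3 against 3 libraries allow (Benjamini-Hochberg adjusted p = 0.17), so this test cannot reach the threshold with 3 libraries a group. Between FMD and IF livers all 4 pairs overlapped, with p from 0.40 to 0.80 in the exact permutation tests. The comparisons share their FED libraries, and how reads were divided between near-identical copies was not stated. The paralogs Rpl3l, Rpl10l, Rpl39l and Rps4l were not analysed here. Of the genes they relate to, Rpl10 (0.60, limma adjusted p = 0.025) and Rps4x (0.60, limma adjusted p = 0.0088) were called for FMD on deposited values, and Rpl39 was at 0.58 (limma adjusted p = 0.032).

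**Figure D5:**
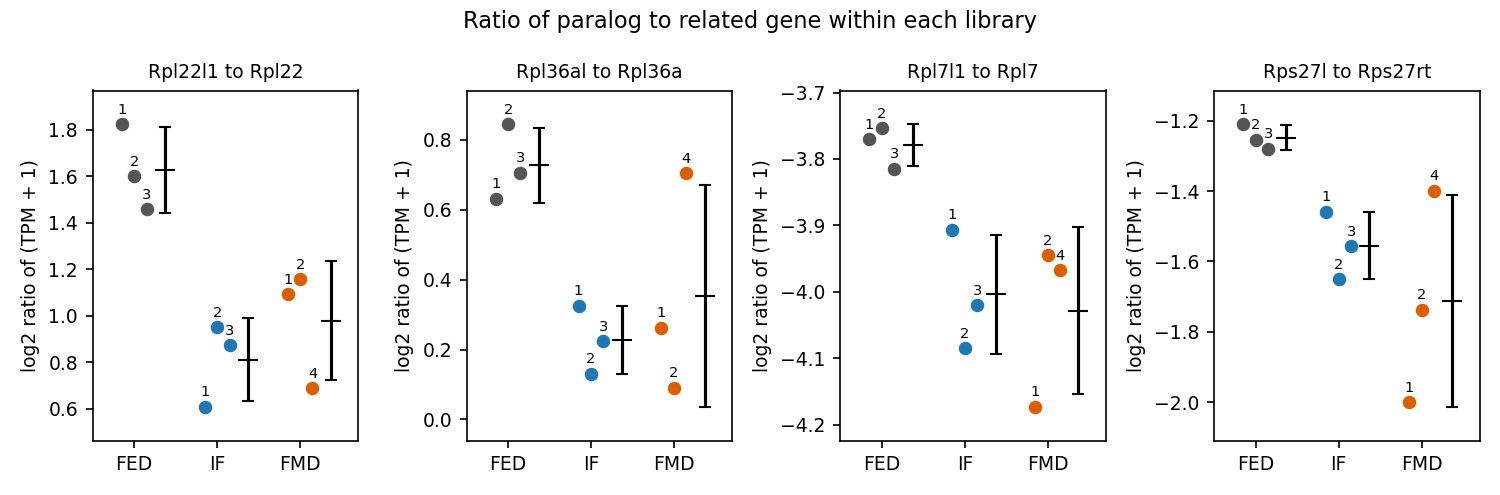
Log2 ratio of (TPM + 1) of a paralog to its related gene in each library, with the replicate number, and the mean and SD of 3 libraries per group. The ratio is lower in every IF library than in every FED library for all 4 pairs, and FMD 4 overlaps with FED for Rpl36al.

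Of 3 ribosomal proteins with other names, 3 were called higher for FMD and 1 for IF on deposited values. These counts compare with 35.5% and 10.3% of all genes tested. Fau, which encodes Rps30 fused to a ubiquitin-like protein, rose for FMD by 0.89 (limma adjusted p = 0.00085), and Rack1, a scaffold on the small subunit, by 0.65 (limma adjusted p = 0.015). For IF, Fau was at 0.70 (limma adjusted p = 0.0074), above the 0.66 of the highest cytosolic member. On scaled values 0 of the 3 were called. Without the limit on size Fau passed there, at 0.42 for IF (limma adjusted p = 0.024) and 0.34 for FMD (limma adjusted p = 0.042). Of 3 genes listed for the mitoribosome under other names, 1 was called higher for FMD, near the 35.5% of all genes tested. It was Oxa1l, the insertase to which the mitoribosome docks and not itself a subunit, at 0.59 (limma adjusted p = 0.0025). The subunit genes Dap3 (0.18, limma adjusted p = 0.36) and Aurkaip1 (0.29, limma adjusted p = 0.093) were not called. On scaled values Oxa1l was at 0.05 (limma adjusted p = 0.73).

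Genes that make or control ribosomes were also higher on the deposited scale. The counts of the gene lists include FMD 1, and how far they rest on that library was not tested. Without FMD 1 the share of all genes called higher for FMD against FED was 23.1% in place of 35.5%. Of 9 genes of RNA polymerase I, which transcribes the rRNA precursor, 8 were called higher for FMD against FED and 0 lower, against 35.5% and 1.59% of all genes tested, with a median of 0.72 against 0.48. Among them were the activator Ubtf (0.94, limma adjusted p = 0.00045), the polymerase subunits Polr1b (0.85, limma adjusted p = 0.0011) and Twistnb (0.77, limma adjusted p = 0.0020). On scaled values 0 were called for FMD and the median was 0.27. Of 69 genes of nucleolar ribosome biogenesis, 46 were called higher and 0 lower for FMD, against 35.5% of all genes higher, with a median of 0.69, and 4 for IF, a share below the 10.3% of all genes. On scaled values 8 of the 69 were still called higher for FMD and 0 lower, against the 5.49% of all genes given above. The assembly factor Rrs1, which brings the 5S ribonucleoprotein into the pre-ribosome, measured 9.89, 10.9 and 11.0 TPM in FED, 15.01, 16.9 and 15.8 TPM in IF, and 31.7, 24.0 and 24.4 TPM in FMD livers. It rose for FMD by 1.25 on deposited values (limma adjusted p = 7.8e-05) and 0.73 on scaled values (limma adjusted p = 0.00052), with no overlap between groups. Utp18, of the small-subunit processome, rose by 1.02 (limma adjusted p = 0.00064) and Sbds, which helps release Eif6 from the large subunit, by 0.92 (limma adjusted p = 0.00027).

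Among 12 other TOP mRNAs of translation, 11 were called higher for FMD and 4 for IF on deposited values, against 35.5% and 10.3% of all genes, and 1 and 0 on scaled values, against 5.49% and 3.69%. The elongation factor Eef1a1 rose for FMD by 0.85 (limma adjusted p = 0.00086), the initiation factor Eif4b by 0.80 (limma adjusted p = 0.00058) and Naca, of the nascent-chain complex, by 0.85 (limma adjusted p = 0.0015). Of 19 genes of mTORC1 and the control of TOP mRNAs, 9 were called higher for FMD and 0 lower, against 35.5% of all genes higher. On scaled values 3 were higher and 1 lower, against 5.49% and 5.64%. The list was drawn up with activators and inhibitors together, so these counts give no direction of mTORC1 activity, which was not tested. Mtor, the kinase itself, rose by 0.81 (limma adjusted p = 0.00073) and Max, the partner of Myc, by 0.85 (limma adjusted p = 0.0027). Myc, a driver of ribosomal gene transcription, measured 0.78, 0.94 and 1.30 TPM in FED, 4.08, 3.40 and 7.71 TPM in IF, and 23.7, 6.72 and 4.70 TPM in FMD livers. All FED values were below all others and FMD 1 was the highest, and the log2 fold change for FMD was 2.37 on deposited (limma adjusted p = 0.0019) and 1.97 on scaled values (limma adjusted p = 0.0084).

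Of 23 genes of mitoribosome assembly and mitochondrial translation, 7 were called higher and 0 lower for FMD on deposited values, a share below the 35.5% of all genes, and 0 on scaled values. Their deposited median was 0.47, close to the 0.48 of all genes. The smallest adjusted p values belonged to Tfb2m, a mitochondrial transcription factor (0.94, limma adjusted p = 0.00071), the GTPase Gtpbp6 (0.81, limma adjusted p = 0.0014) and the RNA-binding protein Fastkd1 (0.76, limma adjusted p = 0.0014). Of the 5 genes linking the 5S ribonucleoprotein to p53, members Rpl5, Rpl11 and Rps27l among them, 4 were called higher for FMD on deposited values, against 35.5% of all genes, and 1 on scaled values, against 5.49%. The p53 target Cdkn1a, an inhibitor of the cell cycle, measured 2.48, 1.54 and 1.49 TPM in FED, 16.1, 15.3 and 12.4 TPM in IF, and 184, 49.1 and 8.68 TPM in FMD livers. Its FED values lay below all others and its FMD values spanned those of IF, and its log2 fold change for FMD was 3.54 on scaled values (limma adjusted p = 0.0082). The mRNAs encoded in the mitochondrial genome were not analysed here.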

How the data were processed

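The authors prepared strand-specific libraries from oligo-dT enriched liver RNA and sequenced them on DNBSEQ, and they deposited TPM values, normalised per transcript length and library, with 2 decimals. The labels name build mm39. The aligner, counter and annotation are not given in the sources used here, and depth is unknown. Samples were grouped by title.

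Tests used log2(TPM + 1) of the 4665 genes averaging 1 TPM or more. Models were fitted in R 4.3.3 by limma 3.58.1 (all 9 libraries in 1 fit, moderated variances with a trend). p-values were adjusted by Benjamini-Hochberg over all genes tested, and they measure the spread between mice. Scaled values were divided by a median-of-ratios factor, between 0.815 and 1.43. The fitting was tested on simulated data. Paralog ratios were compared by exact permutation. Start sites came from RefSeq (GRCm38.p6). Tables and figures were made in python 3.11.15 with pandas 2.3.3.

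The members and gene lists were chosen with earlier results of these data known. Named genes were the highest and lowest by TPM, the called members with the smallest adjusted p, the extremes of each comparison, the 5S, stalk and paralog genes, and up to 3 genes per list, and 2 genes that met this rule are not reported here. Alternatives covered the pseudocount, filter, scaling, quantile normalization, length and GC trends, fit, thresholds, replicate block and each library left out.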

Additional observations from a re-analysis of the deposited data

How the results depend on the processing

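Scaling each library ended the calls and lowered the medians: on scaled values the cytosolic medians were 0.025 (IF against FED), 0.13 (FMD against FED) and 0.074 (FMD against IF), and the mitochondrial ones -0.12, -0.14 and -0.019. For FMD against FED, quantile normalization left 1 cytosolic and 0 mitochondrial members called and removal of length and GC trends 0 and 0. Both settings left 0 and 0 for IF against FED, and both also take out the overall shift of a library. Leaving out each library in turn gave 9 to 74 cytosolic and 2 to 10 mitochondrial calls for FMD against FED, 0 to 1 in each compartment for IF against FED, and 0 to 10 and 0 to 3 for FMD against IF. The lowest counts for FMD against FED came without FMD 1, and the calls of FMD against IF came without FMD 2 (2 cytosolic) or FMD 4 (10 and 3). Without FED 1, FED 2, FED 3, FMD 2 and FMD 4 the mitochondrial count for FMD against FED was 8, 3, 3, 9 and 10. On scaled values leaving out libraries gave 0 to 1 cytosolic (FMD 1) and 0 to 4 mitochondrial calls for FMD against FED, 1 without FED 3 and 4 without FMD 4.

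Correlations of deviations were between 0.003 and 0.177 for same-numbered libraries and between -0.202 and 0.211 for the others. With 3 libraries a group these values cannot show whether the numbers pair mice, and the main fit did not use them. With the replicate number as a block, FMD against FED gave 68 cytosolic and 10 mitochondrial calls (4 mitochondrial on scaled values), and FMD against IF gave 8 and 2. Without the limit on fold change, IF against FED gave 5 and 4 calls and FMD against FED 23 mitochondrial ones, and on scaled values 1 cytosolic and 6 mitochondrial for FMD and 3 mitochondrial for IF. That setting on scaled values was chosen after seeing the data, as was the pseudocount of 0.25 for the paralog ratios. At an adjusted p of 0.01, 0 and 0 members were called for IF and 3 mitochondrial ones for FMD against FED.

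For FMD against FED, the fold changes of Rplp1 (-0.27), Rps2 (-0.25), Rpl22l1 (-0.53), Rpl36al (-0.22), Rpl7l1 (-0.058), Rps27l (-0.11), Mrps18a (-0.32) and Mrpl49 (-0.51) were below 0 on scaled values, as was Rps27l for FMD against IF (-0.18). Values near 0 changed sign when a library was left out: Rpl22l1 ranged from -0.22 to 0.27, Mrps21 from -0.14 to 0.099, Mrpl49 from -0.017 to 0.095 (-0.010 with the block), and Mrpl14 for FMD against IF from -0.22 to 0.010. The pseudocount, the filter, the trend, a fit per pair, robust variances and the count without paralogs kept all counts within 1.5 times. The causes of these shifts were not tested. With 3 mice a group and unknown depth, small differences between members could not be resolved.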
